A study of Camelus dromedarius with 10 samples.

Results

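The metabotropic GABA and glutamate receptors were followed in the supraoptic nucleus (SON) of the dromedary camel, the hypothalamic nucleus whose magnocellular neurones make vasopressin and oxytocin. The set was defined by gene symbol as 9 genes, GABBR1, GABBR2 and GRM2 to GRM8, and 6 of them (GABBR2, GRM4, GRM5, GRM6, GRM7 and GRM8) were matched to 1 gene ID each among the 22444 gene IDs of the count table. GABBR1, GRM2 and GRM3 could not be matched and were not analysed here. RNA from unilateral punches of the rostral SON of 5 control camels, with free access to water, and 5 WD camels, deprived of water for 20 days (WD, water deprivation), was sequenced after depletion of ribosomal RNA. All camels were males aged 4 to 5 years and all had free access to food. The libraries are called CON2, CON3, CON4, CON5 and CON13, and WD6, WD7, WD8, WD9 and WD15, after the numbers of the animals. The punches hold neurones, glia and vessels together, so that fewer cells of a type and less RNA per cell cannot be told apart.

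Metabotropic receptors of GABA and glutamate are class C G protein-coupled receptors (GPCRs), which bind their transmitter on a large outer domain and signal through G proteins instead of opening a pore. The GABAB receptor is an obligate pair of subunits, in which GABBR1 binds GABA and GABBR2 carries the receptor to the cell surface and couples it to Gi/o, lowering cyclic AMP, opening inwardly rectifying potassium channels and closing calcium channels. Among the glutamate receptors, GRM5 (mGlu5) belongs to the group I receptors, which act through Gq and phospholipase C, whereas GRM2 and GRM3 (group II) and GRM4, GRM6, GRM7 and GRM8 (group III) act through Gi/o and lower cyclic AMP, in many cases on the nerve terminal. In the SON, GABA and glutamate carry most of the fast synaptic input onto magnocellular neurones, and the metabotropic receptors adjust the release of these transmitters and the firing of the neurones.

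How the members were matched bears on every count given here. GABBR2, GRM4 and GRM6 were matched through a list of receptors made without regard to any change. The copy of that list was incomplete, so a member that was not matched need not be absent from the counts. GRM5, GRM7 and GRM8 were matched only through a table of expressed genes whose copy had been shortened by p-value, so these 3 could be seen only because they differed between the groups. Among the 1063 genes tested whose symbol came from that table alone, 85.0% had an unadjusted p under 0.05, against 11.3% of the 2330 matched through the other lists, and 22.1% against 3.43% had control and WD libraries that did not overlap. How often members pass a threshold is therefore given as a description only.

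GABBR2 was also a target of quantitative PCR in the study. By this method the study reported lower GABBR2 in the rostral SON after WD. It did not list GABBR2 among the genes so changed in the caudal SON. The forward and reverse primers of GABBR2, of 20 bases each, are the only sequences of a member at hand. They are shown 5′ to 3′ with no base singled out, and were not mapped to the gene ID whose counts are given here.
GABBR2 forward primer: cagtggaacacaacagagcc
GABBR2 reverse primer: ctggatgtgttctggggagt

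The libraries held between 1665098 (CON13) and 8126641 (WD9) counted read pairs, with totals of 1665098 to 7518432 in control and 4227685 to 8126641 in WD. Because 5 gene IDs took 27.7% to 76.1% of a library, the counts left for all other genes ran from 397495 in CON13 and 1106575 in WD6 to 5872137 in WD9. Levels are given as CPM, counts scaled to a common library size with TMM factors, and 1 read pair was worth 1.20 CPM in CON13. CON13 thus gives the least precise values for genes as sparse as these receptors, and where a value turned on it the value without it is given too. Levels were compared between the groups for each gene and not between genes, since no transcript lengths were used. Differences were tested with edgeR's quasi-likelihood test on all 14432 genes that passed the filter on low counts, the p-values were adjusted by Benjamini-Hochberg (padj) and a gene was called at a padj of at most 0.05.

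None of the 5 members tested (GABBR2, GRM4, GRM5, GRM7 and GRM8) passed the threshold in edgeR, where 72 of 14432 genes did (39 higher and 33 lower in WD), or 0.499%. At an unadjusted p under 0.05 there were 4 of 5 (3 lower and 1 higher), against 9.31% of all genes (4.41% lower and 4.91% higher). However, GRM5, GRM7 and GRM8 were matched only through the table shortened by p-value, where 85.0% of genes had such a p. Of the tested members matched without regard to any change, GABBR2 had such a p and GRM4 did not. DESeq2 called 1, GABBR2, against 1.27% of the genes for which it gave a padj. GABBR2, GRM5 and GRM7 were lower in WD and GRM8 was higher. GABBR2 and GRM7 were lower in every WD library than in any control library, a separation shown by 1.27% of all genes in that direction and by 2.62% in either. Among genes seen only through the shortened table, as GRM7 was, 22.1% did not overlap in either direction. Among genes matched as GABBR2 was, 3.43% did not. GRM4 differed by less than the spread between libraries, and GRM6 was too sparse for the test.

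**Figure D1:**
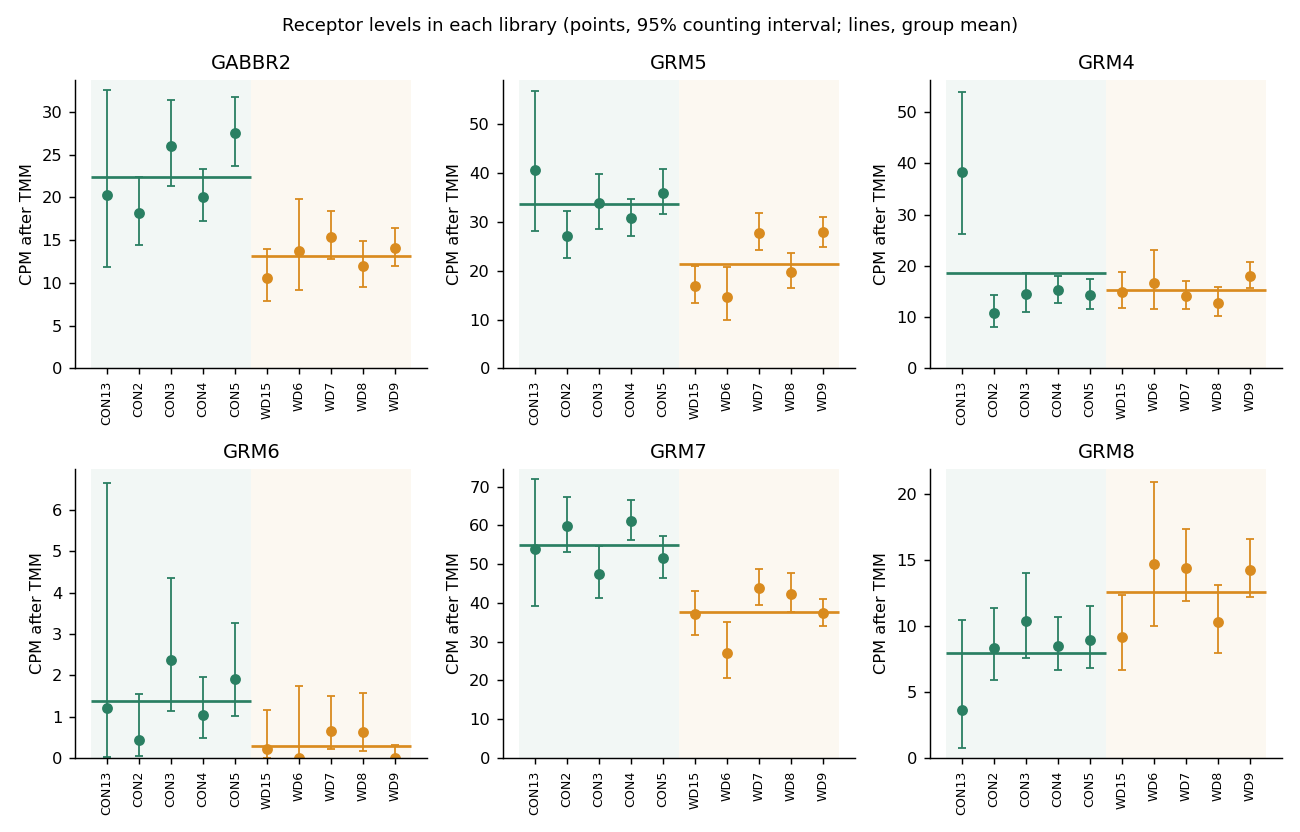
CPM after TMM scaling (vertical axes, each from 0) of the 6 matched receptors in the 5 control (green) and 5 WD (orange) libraries; points carry the 95% Poisson interval of the count and horizontal lines mark group means. The WD points of GABBR2 and GRM7 all lie below the control points, and CON13 stands above the other control libraries for GRM4 (38.3 CPM) and below them for GRM8 (3.59 CPM).

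GABBR2 (ENSCDRG00005000057), the signalling subunit of the GABAB receptor, was at 18.1 CPM in CON2, 26.0 in CON3, 20.1 in CON4, 27.5 in CON5 and 20.3 in CON13. In the WD camels it was at 13.8 CPM in WD6, 15.4 in WD7, 11.98 in WD8, 14.1 in WD9 and 10.6 in WD15. The highest WD library was thus below the lowest control library, and the WD mean was 58.8% of the control mean. The means were 22.4 ± 4.10 CPM in control and 13.2 ± 1.88 CPM in WD (SD, n = 5 each), from 575 and 442 read pairs. In edgeR the log2 fold change (LFC) was −0.77 with a standard error of 0.203 and padj = 0.139, so GABBR2 did not pass the threshold, and it stood at place 137 of 14432 genes when ordered by p. DESeq2, the tool of the study, gave nearly the same LFC of −0.78 and padj = 0.0305, below the threshold.

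The size of the GABBR2 difference hardly moved with depth. In the 5 libraries with the most counts outside the dominant genes (CON4, CON5, WD7, WD8 and WD9) the log2 ratio of the group means was −0.78, and in the 5 others it was −0.82. With this depth group as a covariate, edgeR gave an LFC of −0.81 and padj = 0.0421. Leaving out each library in turn gave LFCs of −0.87 to −0.68 and padj of 0.0853 (without WD6) to 0.398, with no call in any of the 10 fits.

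GRM7 (ENSCDRG00005007785) encodes mGlu7, a group III receptor of low glutamate affinity that sits at the active zone of nerve terminals. Its control libraries held 60.0 CPM in CON2, 47.5 in CON3, 61.3 in CON4, 51.7 in CON5 and 53.8 in CON13. The WD libraries held 27.1 CPM in WD6, 43.9 in WD7, 42.4 in WD8, 37.4 in WD9 and 37.1 in WD15. The groups did not overlap, with WD7 next below CON3. With means of 54.9 ± 5.75 CPM in control and 37.6 ± 6.60 CPM in WD (SD, n = 5 each), the LFC was −0.54 with a standard error of 0.172 and padj = 0.259 in edgeR, and DESeq2 gave padj = 0.0828. Leaving out each library in turn moved the LFC between −0.61 and −0.45. The log2 ratio of the group means was −0.45 in the 5 deepest libraries and −0.75 in the 5 others, and no alternative brought GRM7 past the threshold.

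GRM5 (ENSCDRG00005009561) encodes mGlu5, the group I receptor of the set, which raises inositol phosphates and calcium through phospholipase C. The control values were 27.1 CPM in CON2, 33.8 in CON3, 30.8 in CON4, 36.0 in CON5 and 40.7 in CON13. The WD values were 14.7 CPM in WD6, 27.8 in WD7, 19.8 in WD8, 27.9 in WD9 and 16.9 in WD15. WD7 and WD9 lay just above CON2, so the groups overlapped. The means were 33.7 ± 5.14 CPM in control and 21.4 ± 6.15 CPM in WD (SD, n = 5 each), and the LFC of −0.61 (standard error 0.211, padj = 0.330 in edgeR) did not pass the threshold. The log2 ratio of the group means was −0.41 in the 5 deepest libraries and −1.10 in the 5 others, and for neither GRM5 nor GRM7 was the difference between depths tested.

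GRM8 (ENSCDRG00005005517), which encodes the group III receptor mGlu8, was the member with a higher level in WD. It was at 8.32 CPM in CON2, 10.4 in CON3, 8.49 in CON4, 8.93 in CON5 and 3.59 in CON13, where only 3 read pairs were counted and the 95% interval ran from 0.740 to 10.5 CPM. The WD libraries held 14.7 CPM in WD6, 14.4 in WD7, 10.3 in WD8, 14.3 in WD9 and 9.17 in WD15. WD8 and WD15 lay below CON3 and the 3 other WD libraries lay above every control library. The means were 7.95 ± 2.57 CPM in control and 12.6 ± 2.63 CPM in WD (SD, n = 5 each), with an LFC of 0.57, a standard error of 0.253 and padj = 0.496 in edgeR. Without CON13 the control mean was 9.04 ± 0.948 CPM (SD, n = 4) and the LFC was 0.47, the smallest of the 10 fits that leave out a library, and the largest was 0.66.

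GRM4 (ENSCDRG00005003578), which encodes mGlu4, a further group III receptor of nerve terminals, gave no difference beyond the spread. Its control values were 10.9 CPM in CON2, 14.4 in CON3, 15.3 in CON4, 14.3 in CON5 and 38.3 in CON13, the last from 32 read pairs with a 95% interval of 26.2 to 54.0 CPM. The WD values were 16.6 CPM in WD6, 14.2 in WD7, 12.8 in WD8, 18.1 in WD9 and 15 in WD15. CON13 alone set the control mean of 18.6 ± 11.1 CPM above the WD mean of 15.3 ± 2.07 CPM (SD, n = 5 each). The LFC was −0.13 with a standard error of 0.279 and padj = 0.935 in edgeR, and without CON13 the control mean was 13.7 ± 1.94 CPM (SD, n = 4) and the LFC turned to 0.14 (padj = 0.931).

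GRM6 (ENSCDRG00005006835), which encodes mGlu6, known as the glutamate receptor of ON bipolar cells in the retina, had 45 read pairs in all 10 libraries together and did not pass the filter on low counts. The control libraries held 2 read pairs in CON2, 10 in CON3, 9 in CON4, 13 in CON5 and 1 in CON13. The WD libraries held 0 in WD6, 5 in WD7, 4 in WD8, 0 in WD9 and 1 in WD15. A count of 0 allows up to 1.42 CPM in WD6 and 0.259 CPM in WD9 (3 read pairs), and the upper ends of the 95% intervals drawn in the plot of levels are 1.75 and 0.319 CPM. The lowest control level, 0.427 CPM from the 2 read pairs of CON2, had an interval of 0.0517 to 1.54 CPM. Of the 45 read pairs, 35 came from control and 10 from WD. In fits without the filter the LFC was −2.07 with a standard error of 0.992 and padj = 0.604 in edgeR, and DESeq2 gave −2.16 (unadjusted p = 0.0292) and no padj. Counting intervals cover counting error only.

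A ratio of 2 receptors within a library does not depend on how the libraries were scaled to each other. Of the 10 pairs among the 5 tested members, 3 had control and WD ratios that did not overlap, and all 3 had GRM8 as the partner. GRM8 (higher in WD) and GRM5 and GRM7 (lower) could be seen only because they differed. The separation of these pairs is therefore a description only. The log2 ratio of GABBR2 to GRM8 (0.5 added to each count) was 1.11 in CON2, 1.31 in CON3, 1.24 in CON4, 1.62 in CON5 and 2.32 in CON13. In WD it was −0.095 in WD6, 0.098 in WD7, 0.218 in WD8, −0.018 in WD9 and 0.211 in WD15. Without the added 0.5, GABBR2 gave 2.18 to 5.67 read pairs for each of GRM8 in the control libraries (at most 3.08 without CON13) and 0.935 to 1.16 in the WD libraries.

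The log2 ratio of GRM5 to GRM8 was 2.11 ± 0.680 in control and 0.745 ± 0.418 in WD (SD, n = 5 each), with a lowest control value of 1.69 and a highest WD value of 0.967. That of GRM7 to GRM8 was 2.82 ± 0.565 in control and 1.58 ± 0.482 in WD, with a lowest control value of 2.18 and a highest WD value of 2.03. GRM4 to GRM8 overlapped. Such separation is common for GRM8, as the ratio to GRM8 of 12.2% of the other 14431 tested genes was lower in every WD library than in any control library. With GABBR2, GRM5 or GRM7 as the denominator, 22.6%, 15.7% and 18.5% of the other genes had a ratio that was higher in every WD library. These shares are over all tested genes, whereas GRM5, GRM7 and GRM8 were seen only because they differed. Without CON13 the same 3 pairs were apart, together with GABBR2 to GRM4 and GRM4 to GRM5. In that setting 12.5% of the other genes had a ratio to GRM8 and 3.15% a ratio to GRM4 that was lower in every WD library, and 16.8% had a ratio to GRM5 that was higher. The mean differences were −1.24 in place of −1.44 for GABBR2 to GRM8, −1.06 in place of −1.36 for GRM5 to GRM8 and −1.02 in place of −1.24 for GRM7 to GRM8. Among themselves, GABBR2, GRM5 and GRM7 kept overlapping ratios, with mean differences of −0.08 for GABBR2 to GRM5, −0.20 for GABBR2 to GRM7 and −0.13 for GRM5 to GRM7.

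**Figure D2:**
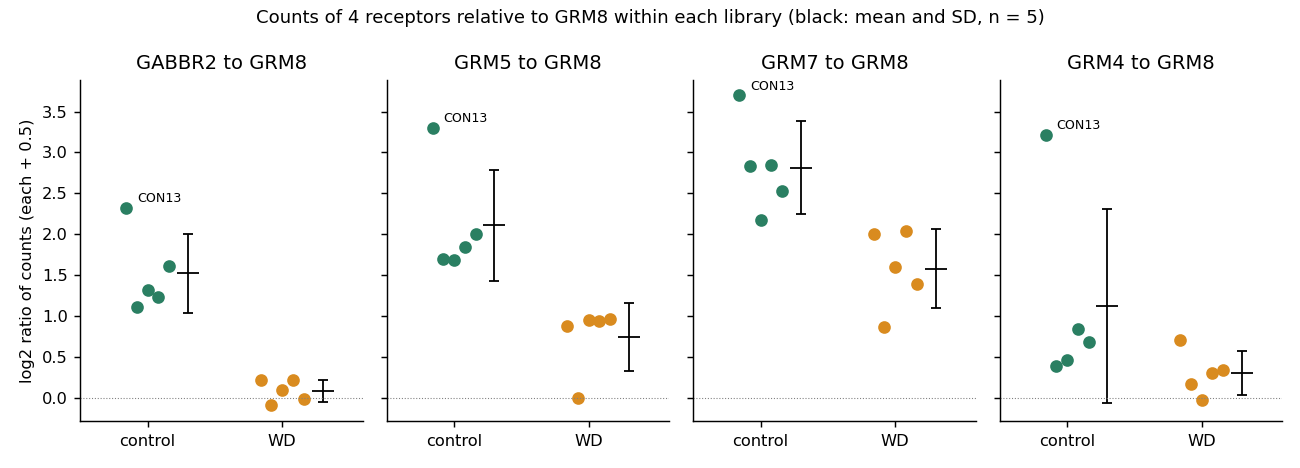
Log2 ratio of the counts of GABBR2, GRM5, GRM7 and GRM4 to those of GRM8 (vertical axis, 0.5 added to each count) in each control (green) and WD (orange) library, with the mean and SD of the 5 libraries in black. The first 3 panels show no overlap between the groups, and CON13, with 3 read pairs of GRM8, is the highest control point in all 4.

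Over the processing settings the signs of GABBR2, GRM5, GRM7 and GRM8 were the same in every fit, while GRM4 lay on either side of 0. Scaling by library totals alone, which moved the median LFC of all genes from 0.02 to 0.16, brought GABBR2 to −0.62, GRM5 to −0.37 and GRM7 to −0.34 and raised GRM8 to 0.68. None of these passed the threshold, and under that scaling only 10 genes of the whole table did.

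**Figure D3:**
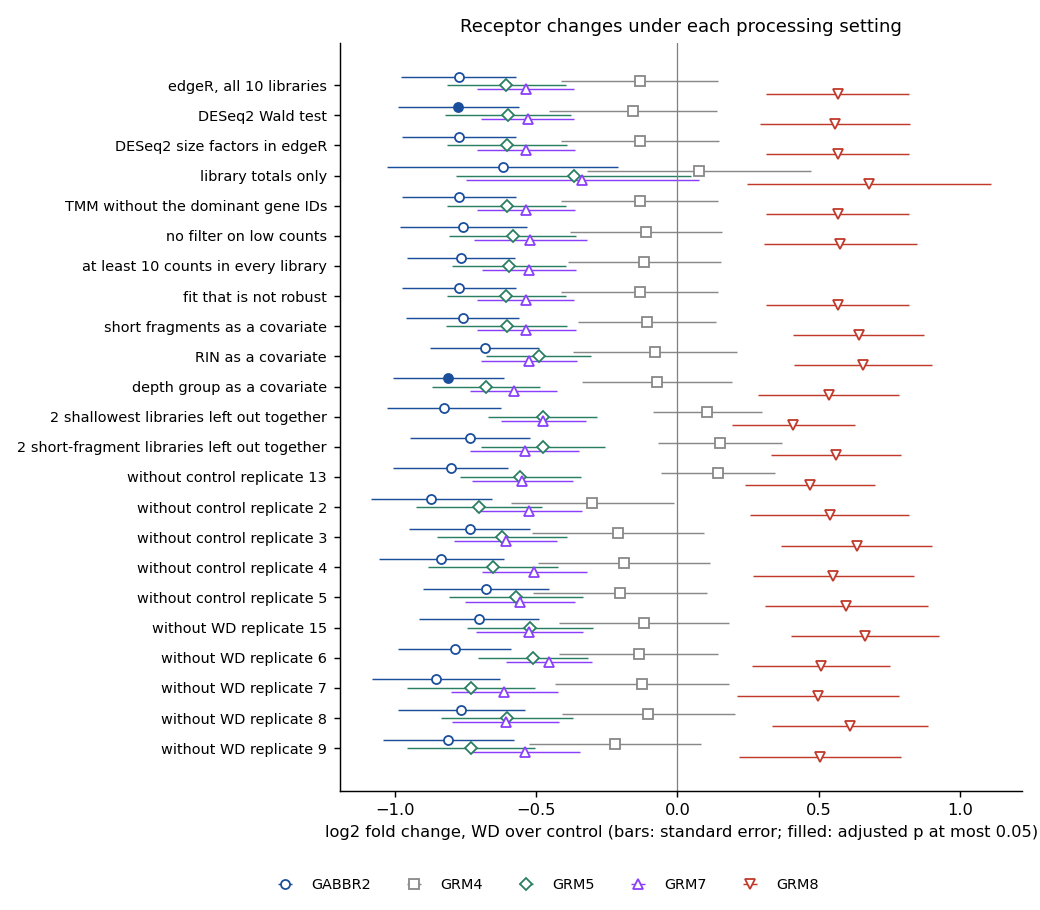
LFC of WD over control (horizontal axis, log2; bars, standard error) for the 5 tested receptors under each processing setting (vertical axis); filled symbols have an adjusted p of at most 0.05. GABBR2, GRM5 and GRM7 lie left of 0 and GRM8 right of 0 in every row where they are shown, and the 2 filled symbols are both GABBR2.

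The genes whose levels ran most closely with each receptor over the 10 libraries are given as a description, as they share libraries and depth. For GABBR2 these were SLC4A8, a sodium-driven bicarbonate exchanger (Pearson r = 0.966), NCAM1, a neural cell adhesion molecule (0.964), and SAMD14 (0.955). GRM7 ran with GARNL3 (0.924), FANCM (0.921) and SLC35E2B (0.920). GRM5 ran with the cyclic GMP-dependent kinase PRKG1 (0.956), the kinase PAK5 (0.947) and the orphan receptor GPR176 (0.941). The nearest to GRM8 were the casein kinase CSNK1G1 (0.958), ZNF248 (0.941) and the carbonyl reductase CBR1 (0.940), and without CON13 these were at 0.866, 0.795 and 0.779. Those nearest to GRM4 were CSRNP2 (0.916), SOHLH2 (0.912) and ZNF768 (0.908), which dropped to 0.620, 0.502 and 0.595 without CON13. For the 9 genes nearest to GABBR2, GRM5 and GRM7, r without CON13 was between 0.918 and 0.977. Only genes with a symbol were considered. All 3 named for GABBR2, all 3 for GRM7 and GPR176 had a symbol only through the table shortened by p-value, so they could be seen because they differed between the groups.

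Of the receptors' pathways, 126 genes in 12 lists are reported here, of which 56 were matched and 54 were tested. Of the 40 genes in the 6 enzyme lists, 35 were matched without regard to any change and 34 of these were tested. Over these 34, edgeR called 0, DESeq2 called 1 (ADCY8) and 9 (26.5%) had an unadjusted p under 0.05, against 9.31% of all genes and 11.3% of the genes matched in the same way. Their median LFC was −0.03 and 18 lay below 0, against a median of 0.02 and 48.1% below 0 over all genes.

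Protein kinase C acts downstream of Gq-coupled receptors such as mGlu5. Of the 8 isoforms reported here all were tested, neither edgeR nor DESeq2 called any and 5 had an unadjusted p under 0.05 (9.31% of all genes did). PRKCE, the epsilon isoform, had no overlap between the groups (61.2 ± 8.67 CPM in control and 41.8 ± 9.30 CPM in WD, LFC −0.55, padj = 0.321), and the atypical isoform PRKCZ had an LFC of −0.67 (padj = 0.298). The LFC of PRKCB, 0.70 (padj = 0.367), lay on the other side of 0. There were 4 isoforms below 0 and 4 above, with a median of −0.03.

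None of the 4 phospholipase C beta isoforms, the enzymes that Gq turns on, was called by edgeR. An unadjusted p under 0.05 was found for 1, PLCB4 (9.31% of all genes and 11.3% of genes matched in the same way had one). PLCB4 had 38.3 ± 6.65 CPM in control, 26.5 ± 6.04 CPM in WD and an LFC of −0.55 (padj = 0.366). Of the 10 adenylyl cyclases, the enzymes that make cyclic AMP, edgeR called none, 2 had an unadjusted p under 0.05, 8 had an LFC below 0 and the median was −0.17. Over all genes, 9.31% had such a p, 48.1% lay below 0 and the median was 0.02. ADCY8, a cyclase stimulated by calcium, was at 33.5 ± 6.26 CPM in control and 55.7 ± 6.52 CPM in WD (SD, n = 5 each) with no overlap, an LFC of 0.71 and padj = 0.102 in edgeR, while DESeq2 called it at padj = 0.0113. ADCY10, the soluble cyclase, which is not under the control of G proteins, had an LFC of −1.18 (padj = 0.439). Both catalytic subunits of protein kinase A that were matched, PRKACA (LFC −0.38, padj = 0.524) and PRKACB (0.31, padj = 0.761), missed the threshold.

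The GPCR kinases, which phosphorylate active receptors, gave no call in edgeR or DESeq2. All 7 were matched and 6 were tested, none had an unadjusted p under 0.05, and their LFCs ran from −0.09 (GRK5) to 0.42 (GRK6, padj = 0.605) with a median of 0.17. Among the enzymes that make and break down the transmitters, edgeR and DESeq2 called none of the 5 of 7 genes matched and 1 had an unadjusted p under 0.05. GAD1 and GAD2, which make GABA from glutamate, had LFCs of −0.18 (padj = 0.899) and −0.04 (padj = 0.980), and ABAT, which breaks GABA down, had 0.10 (padj = 0.903). The enzyme with the unadjusted p under 0.05 was the glutaminase GLS2 (LFC −0.49, padj = 0.486), which was matched through the table shortened by p-value.

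**Figure D4:**
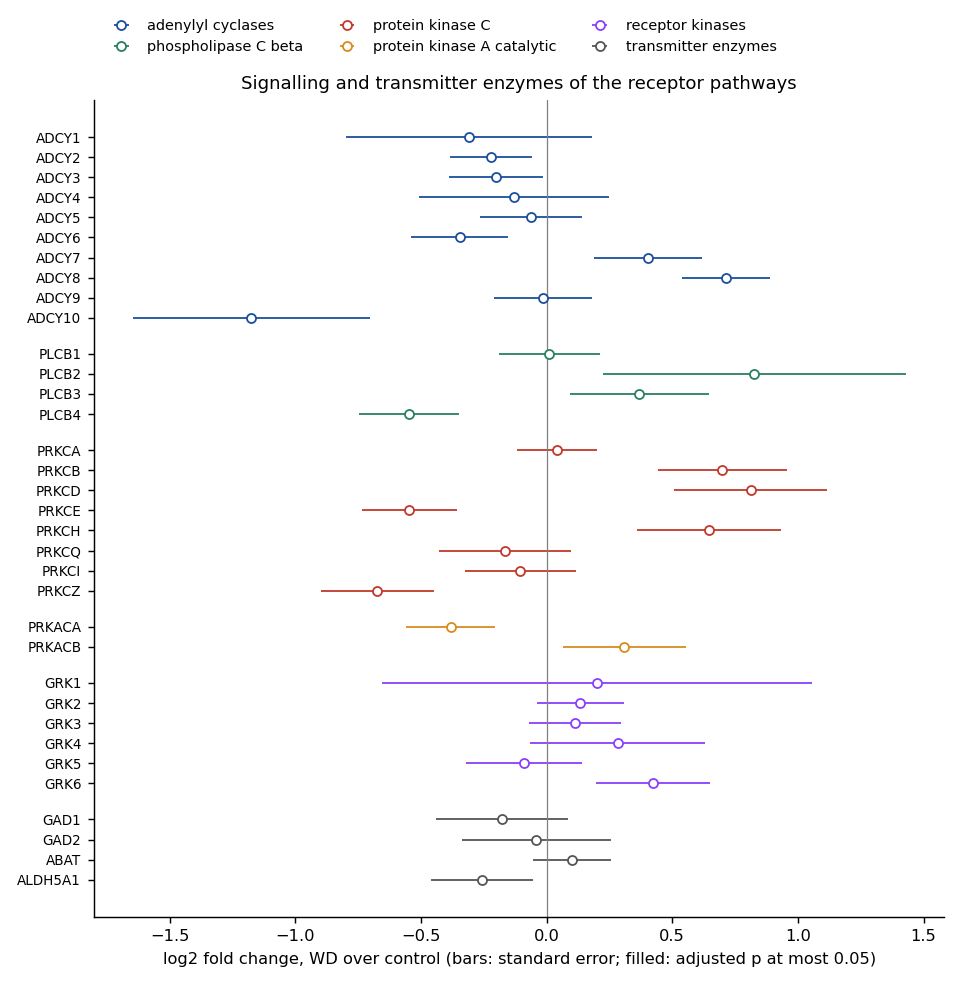
LFC of WD over control (horizontal axis, log2; bars, standard error) for the reported enzymes of the receptor pathways matched without regard to any change, coloured by list; filled points have an adjusted p of at most 0.05. No point shown is filled, ADCY8 lies furthest right of the adenylyl cyclases and the GPCR kinases sit near 0.

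The other lists were matched in small part and mostly through the table shortened by p-value. Over all lists, the 17 genes seen only in that way had a median LFC of −0.46 and 14 had an unadjusted p under 0.05. Of all tested genes seen only in that way, 85.0% had such a p. SLC38A2, an amino acid transporter that carries glutamine, was called and rose from 109 ± 31.9 CPM in control to 232 ± 61.0 CPM in WD (SD, n = 5 each), with an LFC of 1.08 and padj = 0.0337 in edgeR. The call held in 2 of the 10 fits that leave out 1 library, with a highest padj of 0.178 without CON3, while the LFC ran from 0.95 to 1.21 over these fits. SLC38A1, its close relative, had an LFC of 0.51 (padj = 0.373). The vesicular glutamate transporters SLC17A7 and SLC17A8 had LFCs of −1.63 (padj = 0.420) and −1.43 (padj = 0.467), with control SDs nearly as large as the control means (8.89 ± 7.56 CPM for SLC17A7 and 5.14 ± 4.51 CPM for SLC17A8, n = 5).

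The ionotropic receptors, which open a pore, were matched for 4 of the 27 genes reported here, all through the table shortened by p-value, where 85.0% of genes had an unadjusted p under 0.05. Neither edgeR nor DESeq2 called any, 3 had an unadjusted p under 0.05 and all 4 had an LFC below 0: the GABAA subunit GABRB2 (−0.70, padj = 0.449), and the NMDA receptor subunits GRIN2D (−0.71, padj = 0.454), GRIN1 (−0.46, padj = 0.531) and GRIN2B (−0.41, padj = 0.577). Among binding partners, 4 of 18 were matched, none was called by edgeR and 3 had an unadjusted p under 0.05. These 3 (NECAB2, HOMER2 and ELFN2) were matched only through the table shortened by p-value, where 85.0% of genes had such a p and 22.1% did not overlap between the groups. NECAB2, a calcium-binding protein that binds mGlu5, was lower in every WD library (11.2 ± 3.22 CPM in control and 6.51 ± 1.43 CPM in WD, LFC −0.77, padj = 0.367). The scaffold HOMER2 had an LFC of −0.48 (padj = 0.510), ELFN2, which binds group III receptors across the synapse, had −0.51 (padj = 0.492), and APP, matched without regard to any change and a ligand of the GABAB receptor through its shed ectodomain, had −0.05 (padj = 0.960).

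Of the channels that Gi/o-coupled receptors open or close, KCNJ5, a subunit of the inwardly rectifying potassium channels, was the 1 of 7 matched, with 10.2 ± 4.60 CPM in control, 18.9 ± 4.92 CPM in WD and an LFC of 0.99 (padj = 0.200). The 3 of 12 G protein subunits matched gave LFCs of −0.40 for GNAZ (padj = 0.552), 0.47 for GNAQ (padj = 0.482) and 0.58 for GNB4 (padj = 0.485). KCNJ5 and these 3 subunits were matched only through the table shortened by p-value. Of other class C receptors, 3 of 10 were matched and 2 were tested, the calcium-sensing receptor CASR (LFC 0.01, padj = 0.998) and GPRC5A (−0.73, padj = 0.833).

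For comparison, 61 other GPCRs were tested, from the incomplete copy of the receptor list made without regard to change. Of these, 38 (62.3%) had an LFC below 0, against 48.1% of all genes, and the median was −0.14. There were 4 (6.56%) whose groups did not overlap, against 2.62% of all genes and 3.43% of the genes matched in the same way. EdgeR called 1 (1.64%, against 0.499% of all genes), the adrenoceptor ADRA1A, which rose from 18.8 ± 2.81 to 35.5 ± 6.23 CPM (LFC 0.95, padj = 0.0241). DESeq2 called 3, ADRA1A, OPRL1 and ADCYAP1R1, against 1.27% of all genes with a padj. Those without overlap besides ADRA1A were OPRL1 (LFC −0.94, padj = 0.0683), ADCYAP1R1 (−0.58, padj = 0.194) and CALCR (0.72, padj = 0.203). The LFC of GABBR2 thus stood between those of OPRL1 and ADCYAP1R1, both lower in every WD library.

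Levels of cell type markers are set beside these values, and their part in the receptor values was not tested. All 4 astrocyte markers, NEFL and 7 of the 10 microglial markers were matched only through the table shortened by p-value, and could be seen only because they differed. The 10 of 11 microglial markers matched all had an LFC above 0 with 1 called, C1QA (LFC 1.63, padj = 0.0232), and summed to 387 to 612 CPM in control and 511 to 1885 CPM in WD. The 4 of 11 astrocyte markers matched, none called, summed to 495 to 738 CPM in control and 782 to 994 CPM in WD, without overlap. NEFL, the 1 of 7 general neuronal markers matched, was at 190 to 274 CPM in control and 83.3 to 256 CPM in WD (LFC −0.63, padj = 0.402). Of 7 magnocellular and hypothalamic markers 4 were matched (AVP and OXT were not) and summed to 501 to 699 CPM in control and 830 to 1253 CPM in WD. PDYN, a peptide precursor of vasopressin neurones, was called in that list (LFC 1.93, padj = 0.000302). The 3 others, the transcription factors SIM1 (LFC −0.04, padj = 0.973), ARNT2 (−0.03, padj = 0.977) and OTP (−0.58, padj = 0.454), summed to 379 to 530 CPM in control and 391 to 541 CPM in WD, so the separation of the whole list came with PDYN. The sums of 6 oligodendrocyte-lineage markers (132 to 298 CPM in control, 120 to 223 CPM in WD) and of 5 endothelial and pericyte markers (255 to 429 CPM in control, 252 to 518 CPM in WD) overlapped. VIP, a marker of the neighbouring suprachiasmatic nucleus, stayed at or below 2.39 CPM in every library, and CRH, TRH and GAL summed to 9.75 to 38.1 CPM in control and 6.25 to 24.2 CPM in WD. None of the markers matched was at 0 in all libraries.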

How the data were processed

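The count table that the authors deposited holds whole-number counts of read pairs per Ensembl gene ID for 10 libraries, 5 control and 5 WD, from ribosome-depleted, stranded total RNA. Per the labels and the study's methods the authors used FastQC, STAR (assembly Camdro2), featureCounts and DESeq2; the strand setting of the counting is not given in the sources used here, so antisense reads cannot be told apart. A second table that the authors deposited holds the counts divided by a size factor, a normalised signal used only to check the libraries. No deposited column of values per sample was left out.

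Gene symbols came from tables of the study, with genes matched by ID. Members and lists were chosen with earlier results of these data known, and some genes of the lists are not reported here. The plan was to name every matched member, list genes called by edgeR or DESeq2, at most 3 further genes of a list by p, and the 3 genes nearest to each member. Not every list gene due under this plan was named. ADRA1A, OPRL1, ADCYAP1R1 and CALCR, and the further list and marker genes, were named outside it, after their values were seen.

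Counts were filtered (filterByExpr), scaled by TMM and fitted with edgeR 4.0.16 (robust glmQLFit and glmQLFTest, R 4.3.3) over all 14432 genes. The alternative test was DESeq2 1.42.0. The standard error is the LFC divided by the square root of F. CPM intervals are exact Poisson limits at 95% and cover counting error only. Replicates are single camels. The fits were tested on simulated data. No other gene ID had counts within 1% of a member's in every library. Alternatives changed the tool, scaling, filter, dispersion, covariates (RNA integrity, short fragments, depth group) and libraries.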

Additional observations from a re-analysis of the deposited data

Results flagged for a closer look

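In 2 of the 12 groups of 5 libraries examined (6 receptors in 2 conditions), a library lay further from the rest than Dixon's 95% limit of 0.71 for the gap to the nearest library as a share of the range of log2 CPM. Both concerned CON13, the library with the fewest counts. CON13 was the highest control library for GRM4, with a gap of 0.7372 of the range. It was also the lowest control library for GRM8, with a gap of 0.7594 of the range. Among groups of equally precise values, chance alone puts about 1 in 20 past this limit. CON13 was less precise than the other libraries, so that rate need not hold here. The values with and without CON13 are an LFC of −0.13 and 0.14 for GRM4, and of 0.57 and 0.47 for GRM8.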

How the results depend on the processing

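The number of genes called was 72, and 209 with DESeq2, 10 with library totals (7 higher and 3 lower), 224 with the depth group as a covariate and 33 without the 2 short-fragment libraries. It ran from 40 (without CON3) to 102 (without WD6) over the 10 fits that omit 1 library, and was 42 without CON5. With RNA integrity as a covariate it was 104, of which 70 higher. GABBR2 passed the threshold with DESeq2 (LFC −0.78, padj = 0.0305) and with the depth group (−0.81, padj = 0.0421) and in none of the 10 other settings; without a library it ran from −0.87 to −0.68, never past the threshold. GRM4 changed sign with library totals (0.075), without the 2 shallowest libraries (0.11), without the 2 short-fragment libraries (0.15) and without CON13 (0.14), and ran from −0.30 to 0.14 over the fits without a library; its padj was at least 0.838 in all of these. Without a library GRM5 ran from −0.73 to −0.51, GRM7 from −0.61 to −0.45 and GRM8 from 0.47 to 0.66, and in the other settings from −0.68 to −0.37, −0.58 to −0.34 and 0.41 to 0.68, with the same sign and no call in any of these fits; GRM8 had too few counts in CON13 for the filter of 10 counts in every library. The difference of mean log2 CPM of GRM6, −2.34, ran from −2.68 to −1.67 without a library (the latter without WD9); DESeq2 and the fit without a filter are given with its counts, and the stricter filter, the fit that is not robust and the covariates were not run for it. Reported list genes called numbered 1 (SLC38A2), and 2 with DESeq2 and 2 with the depth group (ADCY8 in addition in both), 0 with library totals, 0 without the 2 short-fragment libraries, and 0 to 1 without a library, with SLC38A2 kept in 2 of those fits. Receptor pairs apart numbered 3, and 3 to 5 without a library (5 without CON13). The cause of these shifts was not tested. No paired analysis was possible because the control and WD libraries came from different camels. Depth limits GRM6 and GRM8, of which CON13 held 1 and 3 read pairs. The values of r without CON13 and the marker sum without PDYN were added after seeing the data.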
